A study of Mus musculus with 4 samples.

Results

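The wide peaks described here are stretches of at least 1000 bp on the autosomes that were called as bound by SSRP1 and that did not belong to a longer bound domain. They were chosen by their width and position: all peaks of both lists were pooled, peaks with gaps of 3000 bp or less were merged, and peaks in merged regions of 5000 bp or more were dropped. This left 218 wide peaks of 7353 peaks in all, 104 in replicate 1 and 114 in replicate 2. They lay in 159 merged regions. The cells were E14, a line of mouse embryonic stem cells, kept in medium with 15% serum and 1000 U/mL LIF, and SSRP1-bound DNA was recovered with an antibody and sequenced (ChIP-seq). The labels give 2 SSRP1 ChIP samples and 2 inputs. All were fixed with 1% formaldehyde for 10 min, and 5 µg of a SSRP1 antibody was used for each ChIP. No genotype, treatment or differentiation is named, and nothing says whether the replicates were separate cultures, so the spread between the lists may be technical.

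SSRP1 is the HMG-box subunit of FACT, a histone chaperone that works together with its partner subunit SPT16. FACT loosens and rebuilds nucleosomes in front of and behind RNA polymerase II, and it also acts in DNA replication and repair. Because it travels with the polymerase, its ChIP signal can spread over a stretch of transcribed DNA, unlike that of a factor bound to a short motif, which forms a narrow peak around a single site.

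Each peak carries the authors' fold enrichment, the ratio of ChIP signal over background at the summit, the highest point of the peak. In the formula used here for the fold, 1 is added to both signal and background. The background was local at some peaks and at the genome-wide level at others. A fold ranks peaks within its list, and a higher value in the other list is not a measure of stronger binding. The number of ChIP fragments stacked over each summit was recovered from the fold and the p-value. Over all peaks of replicate 1 it lay between 10 and 385, and over those of replicate 2 between 26 and 400. Positions are on mm9 and count from 1. An annotation of that build was not used here, so no gene, exon, intron or UTR is assigned to any peak.

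Wide peaks were a small part of each list but covered more of its length. They made up 2.12% of the 4916 autosomal peaks of replicate 1 (95% interval 1.73 to 2.56%) and 5.04% of the 2260 of replicate 2 (4.18 to 6.03%). They covered 156 kb and 177 kb, which was 7.40% and 13.99% of the length called. Another 158 autosomal peaks of replicate 1 and 161 of replicate 2 reached 1000 bp but sat in long domains. The median width of the wide peaks was 1261 bp in replicate 1 (range 1006 to 4719) and 1352 bp in replicate 2 (range 1016 to 4957). In replicate 1 the 3 narrowest wide peaks spanned 1006, 1013 and 1015 bp with folds of 2.69, 14.1 and 11.7. The 3 peaks just under the limit spanned 995, 993 and 992 bp with folds of 6.10, 4.90 and 5.45, and the one of 993 bp sat in a long domain. In replicate 2 the values were 1016, 1019 and 1023 bp with folds of 18.8, 26.1 and 22.4, against 998, 997 and 997 bp with folds of 8.18, 7.96 and 13.9. Of the latter, those with folds of 8.18 and 7.96 sat in long domains and would not have been kept at any width limit. At the length limit, the longest merged region kept spanned 4957 bp on chr19:8797997-8802953, and the shortest dropped region with a peak of 1000 bp or more spanned 5006 bp on chr17:35648688-35653693.

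Most wide peaks shared their merged region with another peak of their own list, although none lay in a long domain. In replicate 1, 40 of 104 had no other peak of their own list there, and 12 had none of either list. In replicate 2 these numbers were 37 and 4 of 114. The lower counts treat an overlapping partner as another peak: 28 of the 40 and 33 of the 37 had a partner. Of peaks under 1000 bp, 57.7% and 51.6% had no other peak of their own list in their region. For either list it was 46.3% and 21.8%. The nearest peak of the same list was a median of 709.5 bp away in replicate 1 and 713.5 bp away in replicate 2. For peaks under 1000 bp it was 9816 bp and 3992 bp away. A neighbour within 3000 bp was present for 61.5% of wide peaks in replicate 1 (51.5 to 70.9%) and 67.5% in replicate 2 (58.1 to 76.0%), against 41.8% (40.4 to 43.2%) and 47.4% (45.2 to 49.6%) of the narrower peaks. Most wide peaks therefore lay in a short group of peaks, which the rule allowed but did not require.

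The wide peaks had higher summits than the narrower ones. Their median fold was 7.75 in replicate 1, with the middle 50% of peaks between 5.85 and 9.79, and 8.59 in replicate 2, between 6.16 and 14.4. For peaks under 1000 bp the medians were 4.48 (3.89 to 5.30) and 5.20 (4.52 to 6.55). A median of 37 fragments lay over the summits of wide peaks in replicate 1 and of 75 in replicate 2, against 18 and 42 for narrower peaks. Width and fold come from the same call in the same list, so these values are a description and were not tested. The background at the summit was higher under wide peaks too, at a median of 1.66 times the genome-wide level in replicate 1 and 1.25 times in replicate 2, against 1.44 and 1.00 times under narrower peaks. Whether the local background had a part in the widths was not tested. Among the wide peaks themselves, Spearman's rho between width and fold was 0.27 over the 104 peaks of replicate 1 and −0.002 over the 114 of replicate 2, across peaks of a single library each. In replicate 1 the median fold was 6.60, 7.75 and 8.60 with width limits of 800, 1000 and 1500 bp. In replicate 2 it changed little, at 8.31, 8.59 and 8.59.

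**Figure D1:**
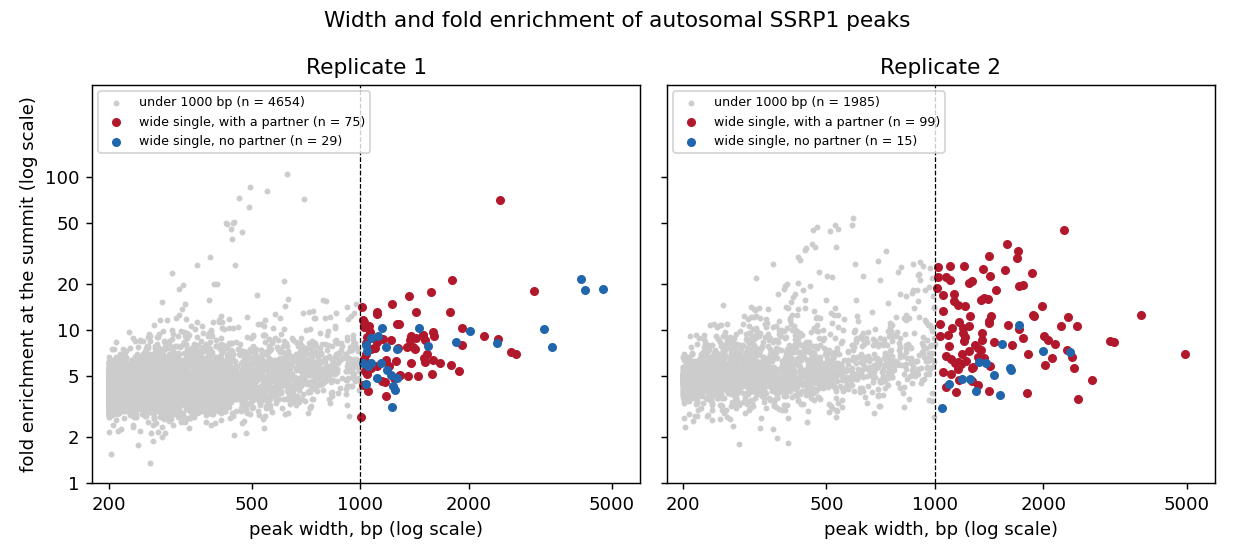
Peak width in bp against fold enrichment, both on log scales, for autosomal peaks under 1000 bp (grey) and wide peaks with (red) or without (blue) an overlapping peak in the other list. The strongest peak in each panel is narrow, and the 3 blue points at the upper right of replicate 1 are peaks of 4092 to 4719 bp with folds of 18.4 to 21.7.

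The strongest wide peak of both lists was the same site on chromosome 18. In replicate 1 it was chr18:24829661-24832106, enriched 70.6-fold with 243 fragments at the summit. In replicate 2 it was chr18:24829774-24832056, enriched 45.0-fold with 330 fragments. Both summits lay in the right part of the peak, at 83.6% and 69.7% of its width, 339 bp apart. The next strongest wide peak of replicate 1 was enriched 21.7-fold, and the next of replicate 2 36.6-fold.

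Several of the next strongest sites were also wide in both samples. The peak chr3:96261939-96263730 was enriched 21.2-fold in replicate 1, and its counterpart chr3:96262025-96263726 was enriched 32.8-fold in replicate 2. Its background in replicate 1 was 3.95 times the genome-wide level. The peak chr5:115939431-115941005 was enriched 17.8-fold in replicate 1, and chr5:115939562-115940971 was enriched 30.6-fold in replicate 2. The edges called in both lists differed by 86 and 4 bp at the first site and by 131 and 34 bp at the second. Another site, chr5:33014744-33015969, was enriched 14.7-fold and 12.2-fold. There the left edges differed by 1152 bp and the right edges by 31 bp, while the summits were 4 bp apart. At the chromosome 3 site the summits were 73 bp apart.

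Other strong wide peaks of replicate 1 were narrower in replicate 2. The peak chr11:87275737-87277101 was enriched 16.8-fold and met a peak of 906 bp, enriched 23.3-fold, whose summit was 5 bp away. The peak chr4:133523439-133524451 was enriched 14.1-fold, and its strongest partner spanned 416 bp at 20.2-fold. The peak chr8:73222810-73225850 spanned 3041 bp at 17.9-fold, while the partner of 560 bp, at 11.8-fold, covered 18.4% of it and had its summit 883 bp away. These sites were called in both samples, over different extents.

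In replicate 2, 5 of the 10 strongest wide peaks lay between 21 and 24 Mb of chromosome 13. The highest, chr13:23835860-23837445, was enriched 36.6-fold, and its partner in replicate 1 12.8-fold. For chr13:23646920-23648610 the values were 29.7 and 7.61, and for chr13:23838610-23839812 they were 26.2 and 12.4. All of these partners had the lower fold. The same was true of chr13:23776093-23777455, at 24.97 and 6.92, and of chr13:21925670-21927237, at 24.7 and 11.7. Elsewhere in the top 10 of replicate 2 were chr3:96289410-96290512, at 26.2 against 9.79, and chr4:80975593-80976611, at 26.1 against 21.05. All of these peaks were picked by their fold in replicate 2. That choice favours lower folds in the other list, and a fold ranks peaks only within its own list.

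A larger share of wide peaks than of peaks in general was also called in the other sample. In replicate 1, 75 of 104 wide peaks shared at least 1 bp with a peak of replicate 2, 72.1% (62.5 to 80.5%). Over all autosomal peaks of replicate 1 the share was 27.0%, and over those under 1000 bp it was 24.4% (23.2 to 25.7%). In replicate 2, 99 of 114 wide peaks met a peak of the other list, 86.8% (79.2 to 92.4%). The share over all its autosomal peaks was 54.2%, and 50.0% (47.8 to 52.3%) of those under 1000 bp. These intervals cover counting error only and take peaks as independent, although most wide peaks had a neighbour within 3000 bp. Wide peaks inside long domains had much the same shares, 72.8% (65.1 to 79.6%) in replicate 1 and 82.0% (75.2 to 87.6%) in replicate 2, so the high share was not particular to those outside domains. No test was made, since peaks of a single library are not replicates and the positions in both lists entered the rule.

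The size of this difference depended on what was compared. A wide peak offers more bases to overlap. When the summits had to lie within 200 bp of each other, the shares of wide peaks fell to 46.2% and 64.9%, which was 27.8 and 24.3 percentage points above the narrower peaks in place of 47.7 and 36.8. When a single peak of the other list had to cover 50% of the peak, 48.1% and 45.6% of wide peaks qualified. This was 26.9 and 1.84 points above the narrower ones. A wide peak covered to that extent only by several shorter peaks together did not qualify. With only peaks of a −log10 q of 10 or more kept in both lists before merging, the rule gave another set of wide peaks, 134 and 118. The lead of these wide peaks was 8.37 and 9.52 points. Strength also differed. With narrower peaks weighted equally over 4 fold bins that each hold 26 to 29 wide peaks, the lead was 17.4 points in replicate 1 and 16.1 in replicate 2.

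At matched fold the lead was largest among the weaker peaks. In the lowest fold bin of replicate 1, 17 of 26 wide peaks were shared, 65.4% (44.3 to 82.8%), against 18.8% (17.6 to 20.04%) of 3882 narrower peaks whose folds lay in the same range. The narrower peaks had a somewhat lower median fold within that range, 4.28 against 4.95. In the next bin 80.8% (60.6 to 93.4%) of wide and 46.2% (41.8 to 50.6%) of narrower peaks were shared. In the highest bin, from a fold of 9.79, the order was the other way round: 19 of 26 wide peaks were shared, 73.1% (52.2 to 88.4%), against 76 of 83 narrower ones, 91.6% (83.4 to 96.5%). These last intervals overlap. In replicate 2 the share of wide peaks rose from 65.5% (45.7 to 82.1%) in the lowest bin to 29 of 29 in the highest (88.1 to 100%). The narrower peaks rose from 40.9% (38.3 to 43.6%) to 98.3% (90.8 to 99.96%).

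**Figure D2:**
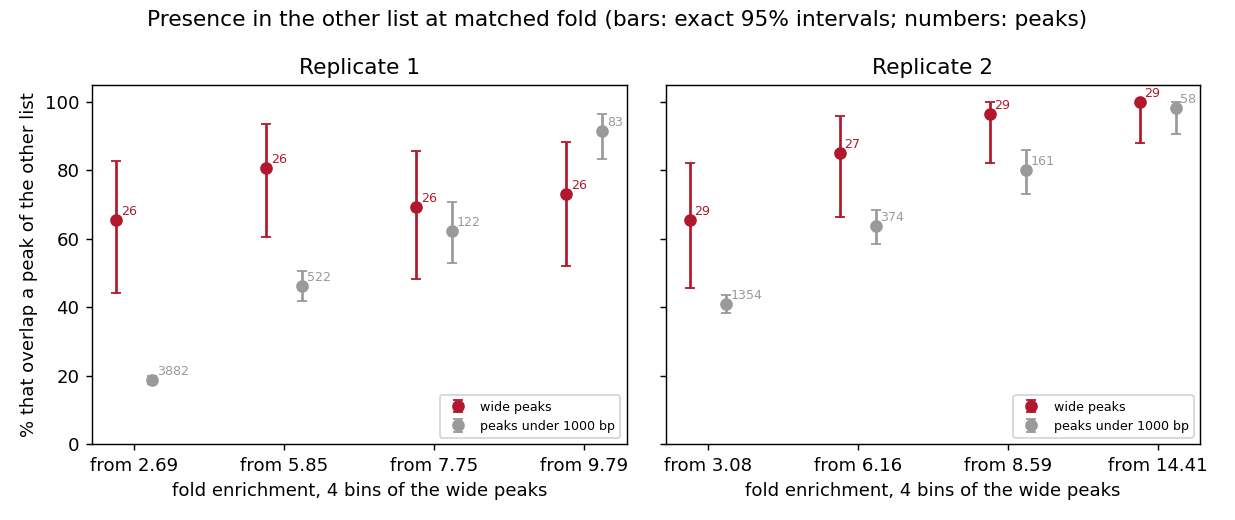
Share of peaks that overlap a peak of the other list, in percent, in 4 bins of fold enrichment set by the wide peaks (x axis), with exact 95% intervals and the number of peaks beside each point. In replicate 1 the shares of wide peaks (red) stay between 65.4 and 80.8% while those of peaks under 1000 bp (grey) climb from 18.8 to 91.6%.

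The missing wide peaks of replicate 1 were mostly absent altogether from replicate 2. Of its 29 wide peaks without a partner, 26 had no peak of replicate 2 anywhere in their merged region. This was not particular to wide peaks: of the 3518 narrower peaks of replicate 1 without a partner, 2928 had none there either. The median fold of the 29 wide peaks was 7.79, against 7.72 for the 75 with a partner, but their summits held a median of 30 against 37 fragments. Fold thus differed little between them. The background under them was lower, at a median of 1.44 against 1.80 times the genome-wide level, and its part in the missing calls was not tested. Replicate 2 differed in this respect: its 15 wide peaks without a partner had a median fold of 5.53, against 9.53 for the 99 with a partner. Of these 15, 11 had no peak of replicate 1 in their region, against 601 of the 992 narrower peaks of replicate 2 without a partner.

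The 3 widest peaks of replicate 1 were among its 5 strongest wide peaks, and none was in the list of replicate 2. The first, chr3:145308910-145313001, spanned 4092 bp and reached 92 fragments, or 21.7-fold. Replicate 2 had nothing within 1396 kb of it. The second, chr3:96361821-96366539, spanned 4719 bp and reached 80 fragments, or 18.5-fold, at 59.6 kb from any peak of replicate 2. The third, chr10:24315413-24319610, spanned 4198 bp and reached 61 fragments, or 18.4-fold, at 808 kb from any. Their backgrounds were 1.04 to 1.48 times the genome-wide level, below the median of 1.66 for the wide peaks of that list. Each summit lay close to an end of the peak, at 83.3%, 10.6% and 8.46% of the width. Signal in these peaks was therefore called over more than 3 kb on a single side of the summit. The rule pooled both lists and dropped regions of 5000 bp or more. Peaks this wide were thus kept more readily where replicate 2 had no peak nearby. Their absence from that list may therefore partly follow from the rule.

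Another 4 wide peaks without a partner reached the highest fold bin of replicate 1. They were chr8:96696748-96697899 (fold 10.3), chr9:121040088-121041540 (fold 10.3), chr4:94715614-94718856 (fold 10.2) and chr8:87500606-87502623 (fold 9.82). Their fragments numbered 38 to 43 and their widths 1152 to 3243 bp. Of all 7 such peaks, 6 had the summit in the outer 20% of the width at either end. The 7 narrower peaks of the same fold range without a partner had a median width of 458 bp. In replicate 2 the strongest wide peak without a partner was chr9:88414357-88416066, enriched 10.7-fold with 78 fragments. It lay 0.8 kb from a peak of replicate 1. The next, chr9:120484035-120485572, was enriched 8.12-fold and lay 82.4 kb from any. The peaks chr11:29444363-29446355, chr9:22199299-22201668 and chr13:31775956-31777283 had folds of 7.31, 7.21 and 6.18. The fourth widest peak of replicate 1, chr11:117826416-117829816, spanned 3401 bp at 7.79-fold and also had no partner. Over a width of 3000 bp, 5 of the 6 wide peaks of replicate 1 and 0 of the 4 of replicate 2 had no partner. The length limit of the rule bears on these counts too, since it favours very wide peaks without neighbours in either list.

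**Figure D3:**
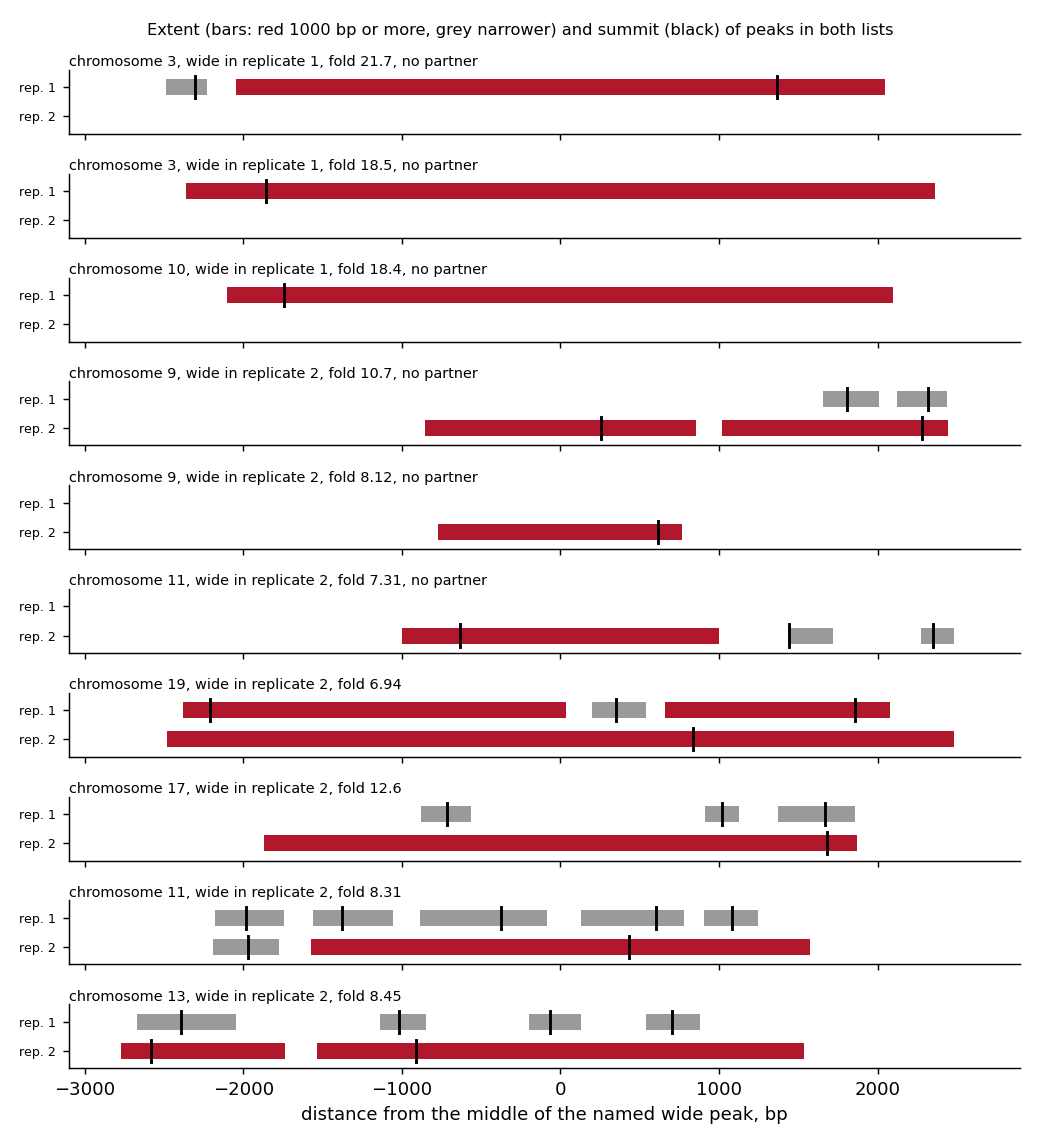
Extent of all peaks in 10 merged regions in bp from the middle of the named wide peak, with replicate 1 above replicate 2 in each row, peaks of 1000 bp or more in red, narrower ones in grey and summits in black. The upper 6 rows hold the strongest wide peaks without a partner in each list, and the lower 4 hold the widest peaks of replicate 2, each of which meets 3 or 4 separate peaks of replicate 1.

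Where both samples had signal, they often divided it differently. Of the 159 regions, 39 held a wide peak in both lists. Another 35 were wide in replicate 1 with narrower peaks in replicate 2, and 50 were wide in replicate 2 with narrower peaks in replicate 1. The remaining 25 and 10 were wide in replicate 1 or 2 with nothing called in the other list. Among wide peaks with a partner, the strongest partner also reached 1000 bp for 38 of 75 in replicate 1, 50.7% (38.9 to 62.4%), and for 39 of 99 in replicate 2, 39.4% (29.7 to 49.7%). Partners of peaks under 1000 bp reached that width in 21.2% (18.9 to 23.7%) and 11.5% (9.56 to 13.6%). The median fold of the strongest partner was 8.04 against 6.36 for peaks of replicate 1 and 6.32 against 5.38 for peaks of replicate 2. A wide peak can meet more peaks and is likelier to touch a long one, so its own width partly fixes the width and fold of its strongest partner.

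The wide peaks of replicate 2 were more often broken into pieces in the other list. Of the 99 with a partner, 35 met at least 2 peaks of replicate 1, and a median of 67.4% of their length was covered. Of the 75 of replicate 1, 11 met at least 2 peaks of replicate 2, and a median of 84.2% was covered. The widest peak of replicate 2, chr19:8797997-8802953, spanned 4957 bp at 6.94-fold and met 3 peaks of replicate 1, which covered 84.2% of it. The next, chr17:35085637-35089380, spanned 3744 bp at 12.6-fold, but its 3 partners covered only 27.2%. The peak chr11:100181917-100185057 had 4 partners covering 72.9%. The peak chr13:91064002-91067073 had 3 covering 31.1%, and the peak chr17:33958247-33960974 had 3 covering 65.2%. The recovered depth over the summit was a median of 75 fragments for wide peaks in replicate 2 and 37 in replicate 1, and its part in the division of peaks was not tested.

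Summits of wide peaks were spread along the peak, while those of narrower peaks were gathered near the middle. The median distance of the summit from the middle was 21.9% of the width in replicate 1 and 22.6% in replicate 2, where 50% would be the very edge and an even spread would give 25%. For peaks under 1000 bp it was 13.2% and 12.2%. The middle 20% of the width held the summit in 18 of 104 wide peaks of replicate 1, 17.3% (10.6 to 26.0%), and in 17 of 114 of replicate 2, 14.9% (8.93 to 22.8%). In narrower peaks it held 39.7% (38.3 to 41.1%) and 43.5% (41.3 to 45.7%) of the summits. The outer 20% at both ends together held 29.8% (21.2 to 39.6%) and 30.7% (22.4 to 40.03%) of the summits of wide peaks, against 12.8% (11.9 to 13.8%) and 10.8% (9.45 to 12.2%). An even spread would place 20% of the summits in the middle part and 40% in the outer parts, so wide peaks lay nearer to it than narrower peaks did and had no excess of summits at the ends. In bp, the nearer edge was a median of 382 and 369 bp from the summit in wide peaks and 107 and 117 bp in narrower ones. Position in percent depends on the width, which also defines the groups. The same distance in bp from an edge is a larger percent of a narrower peak. How much of the contrast in percent follows from this was not tested.

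Summits were divided about evenly between left and right. The summit lay left of the middle, toward lower coordinates, in 53 of 104 wide peaks of replicate 1 and in 61 of 114 of replicate 2. Strand of transcription was not used here, so sides relative to a gene are not given. Off-centre summits made up a larger share of the wide peaks of replicate 1 that had no partner: 15 of 29 lay in the outer 20% at either end, 51.7% (32.5 to 70.6%), against 16 of 75 with a partner, 21.3% (12.7 to 32.3%). In replicate 2 the shares were 26.7% (7.79 to 55.1%) and 31.3% (22.4 to 41.4%). Wide peaks inside long domains, which were not members, had 47.5% and 31.1% of their summits there, with median folds of 7.89 and 8.59 close to those of the wide peaks outside domains.

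**Figure D4:**
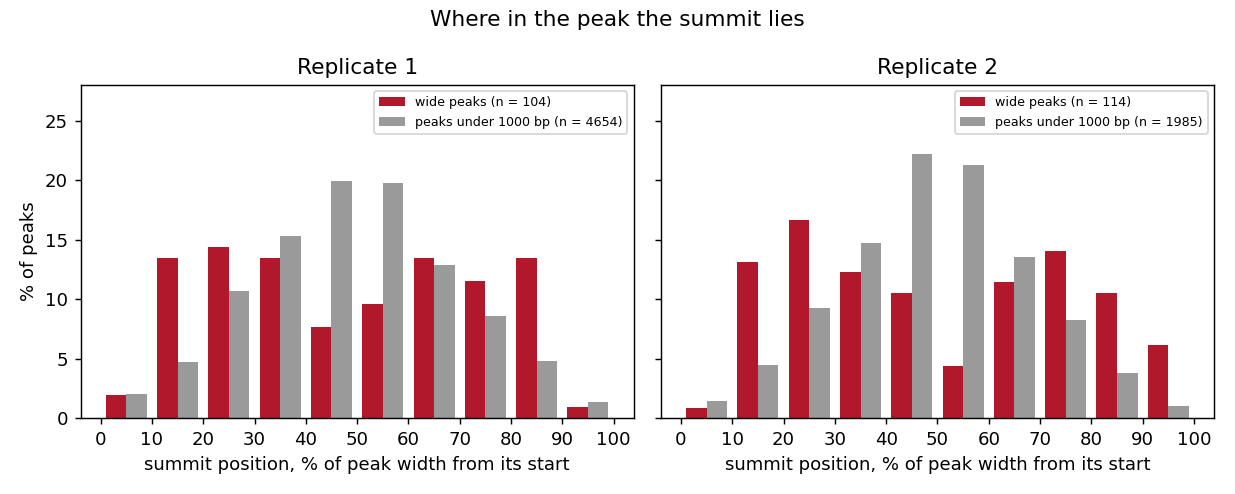
Share of peaks in percent by the position of the summit along the peak, in 10 equal sections of its width from the lower coordinate, for wide peaks (red) and peaks under 1000 bp (grey) of each list. Narrower peaks pile up in the 2 middle sections, with 19.9 and 19.7% in replicate 1, while wide peaks hold 7.69 and 9.62% there and are spread toward both sides.

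For most wide peaks with a partner, the summit lay on the same side of the middle in both samples. The partner's summit fell on the same side of the wide peak's middle for 57 of 75 wide peaks of replicate 1, 76.0% (64.7 to 85.1%), and for 74 of 99 of replicate 2, 74.7% (65.0 to 82.9%). Summits lay a median of 124 bp and 72 bp apart, within 100 bp for 34 of 75 and 57 of 99. For peaks under 1000 bp with a partner, the median distances were 67 and 56 bp. Among wide peaks whose summit was in the outer 20%, 10 of 16 (62.5%, 35.4 to 84.8%) and 20 of 31 (64.5%, 45.4 to 80.8%) had the partner's summit on the same side. The intervals of these last shares include 50%.

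In 38 pairs, a wide peak of replicate 1 had a wide peak of replicate 2 as its strongest partner. A single peak of replicate 2, the 4957 bp one on chromosome 19, served in 2 of them. With each summit placed against the middle of the wide peak of replicate 1, 29 of 38 agreed in side, 76.3% (59.8 to 88.6%), and 20 of 38 summits were within 100 bp. Ranked by how far both summits lay from the middle of their own peaks, the leading pair was split: at chr17:56752912-56754268 the summit was at 12.9% of the width in replicate 1 and at 88.8% in replicate 2, 982 bp apart, with folds of 4.99 and 6.62. The next 4 pairs had both summits on the right side. They were chr5:33014744-33015969 (78.7% and 90.0% of the width), chr11:101505685-101506716 (75.4% and 79.7%), chr3:96261939-96263730 (74.7% and 77.8%) and chr13:23836159-23837268 (79.5% and 74.3%). In these 4 the summits were 3 to 73 bp apart.

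Fold enrichment agreed only loosely between the lists for pairs that were wide in both. The median fold was 8.50 in replicate 1 and 12.3 in replicate 2, and 26 of 38 pairs were higher in replicate 2. Across the 38 pairs Spearman's rho was 0.40 for fold, 0.33 for width and 0.36 for the summit's relative position, and Pearson's r was 0.45 for log2 fold. These are descriptions across pairs from 2 libraries and carry no test. The pair with the highest ratio of the fold in replicate 1 to that in replicate 2, chosen after its values were seen, was chr19:23209111-23210882, with folds of 13.1 and 3.89 and summits 618 bp apart. The 5 pairs from chromosome 13 between 21 and 24 Mb had folds of 4.40 to 12.8 in replicate 1, and all 5 were higher in replicate 2.

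**Figure D5:**
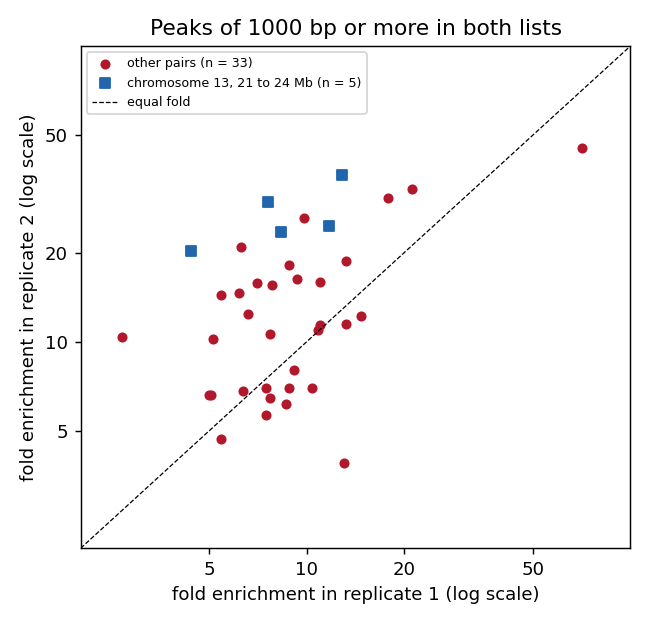
Fold enrichment in replicate 1 (x) and replicate 2 (y), both on log scales, for the 38 pairs of peaks of 1000 bp or more in both lists, with the line of equal fold. The 5 pairs of chromosome 13 between 21 and 24 Mb (blue squares) all lie above the line, and 21 of the 33 other pairs do.

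Wide peaks were spread over the autosomes, with a few local groups. Chromosome 17 held 12 of 104 in replicate 1 (11.5%) and 13 of 114 in replicate 2 (11.4%), against 5.87% and 6.35% of the peaks under 1000 bp. Chromosome 11 held 11 and 14 (10.6% and 12.3%), against 8.10% and 9.17%. Chromosome 13 held 6 and 18, which was 5.77% and 15.8%, against 4.47% and 5.14%. Chromosome 10 held 8 in replicate 1 and 0 in replicate 2, while it held 5.39% of the narrower peaks of that list. Most of the 8 had a partner in replicate 2, and the strongest partners spanned 204 to 755 bp. By counting error alone, 0 of 114 allows a share of up to 2.63%. That limit takes peaks as independent, although some lay in groups, and the chromosome was picked after its count was seen. No depletion was tested. At the low end, chromosome 15 held 1 and 2, chromosome 16 held 2 and 1, and chromosome 7 held 2 and 5 although it took 7.76% and 8.51% of the narrower peaks.

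The largest group was on chromosome 13, over a span wider than the 1 Mb used for the groups below. Between 21 and 24 Mb it held 5 wide peaks in replicate 1 and 13 in replicate 2, and all 18 had a partner. The 5 of replicate 1 had wide peaks of replicate 2 as strongest partners, so these sites count in both lists. Between 23 and 24 Mb alone there were 4 in replicate 1, as many as in the chromosome 3 group, and 10 in replicate 2. The 13 of replicate 2 had a median fold of 22.7 (range 9.53 to 36.6), against 8.12 for the other 101. The 5 of replicate 1 had a median fold of 8.35, against 7.72 for the other 99. Without these peaks the shares of wide peaks with a partner were 70.7% and 85.1%. Between 96 and 97 Mb of chromosome 3 there were 4 wide peaks in replicate 1, with a median fold of 14.1, and 5 in replicate 2, with a median fold of 19.7. Between 72 and 73 Mb of chromosome 1 replicate 1 had 3, all shared, with folds of 11.0 to 13.2. Between 76 and 77 Mb of chromosome 14 it had 3 with no partner and folds of 3.14 to 6.09, over backgrounds of 2.30 to 4.31 times the genome-wide level. In replicate 2 the other groups of 3 were between 52 and 53 Mb of chromosome 7, with folds of 8.59 to 16.3, and between 166 and 167 Mb of chromosome 2, with folds of 7.95 to 15.5.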

How the data were processed

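Peaks of 2 SSRP1 ChIP samples were analysed; processed values of the inputs were not analysed here. Each list was called separately by the authors, as the peak names show. STAR, MACS2, deepTools and build mm9 are named in the submitters' processing notes, without roles; the sources used here do not give versions, settings or controls. The deposited columns hold a fold enrichment (ratio), −log10 p, −log10 q and a score, which is 10 times the −log10 q rounded down. Replicate 1's list had 5011 peaks and replicate 2's 2342. Read totals are unknown. Fragments at summits were solved from fold and p by MACS2's formulas, which gave whole fragments within 0.01 for 100% of peaks, with each fragment of replicate 2 counting 0.416. The backgrounds so recovered have a genome-wide level of 2.28 and 2.07.

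Python 3.11.15, pandas 2.3.3, numpy 2.4.6 and scipy 1.17.1 were used. A partner is a peak of the other list that overlaps by 1 bp or more; the strongest was taken. Shares have 95% intervals (exact, Clopper-Pearson) for counting error only; the limit for a share of 0 is 3 counts of the total. No test was run, since peaks are not replicates. Scripts were tested on simulated data. Regions were named by rule: per list the 10 highest folds, 5 widest, 5 strongest without partner and those at the limits, and the 5 pairs with the most off-centre summits; others were added after their values were seen, such as the fragments, local groups and 2 more strong peaks without partner. Alternatives changed the width, gap, overlap, q and fold settings and the lists used. Position relative to genes was not analysed here. Members and lists were chosen with earlier results of these data known.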

Additional observations from a re-analysis of the deposited data

How the results depend on the processing

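Of 160 values recomputed under other settings, 115 stayed within a band around the main value and 45 moved further. Only the differences between wide and narrower peaks could change sign, and none did. At matched fold this was judged on the mean of 4 bins, and the highest bin of replicate 1 went the other way. The band was 1.5 times for counts and the exact interval for shares. For leads in share it was the half-width of the interval of the wide share. Medians and their excess over narrower peaks have no interval, and their band was the standard deviation between the main values of both lists. Where both lists were close, a small change in a median could therefore count as a move. Values are given for replicate 1, then replicate 2, where both moved. The number of wide peaks was 31 and 41 with a width of 1500 bp, 44 and 56 with gaps of 10000 bp merged, 186 in replicate 1 with 800 bp, and 172 in replicate 2 with gaps of 1000 bp. Median fold became 8.60 (1500 bp) and 6.60 (800 bp) in replicate 1, and 9.70 in replicate 2 with a −log10 q of 10 or more. The median summit distance from the middle was 23.1% and 24.3% with 1500 bp, 23.6% in replicate 1 with gaps of 10000 bp and 22.0% in replicate 2 with gaps of 1000 bp. Its excess over narrower peaks was 10.7 and 12.3 points at a −log10 q of 5, 11.9 and 14.1 points at 10, and 10.4 points in replicate 1 with gaps of 10000 bp. The limits on q were applied before merging, which gave 122 and 123 wide peaks at 5 and 134 and 118 at 10. The share with a partner was 59.0% and 78.9% at a −log10 q of 5, and 48.5% and 63.6% at 10. This share was 48.1% and 45.6% with 50% of the peak overlapped by a single partner, and 46.2% and 64.9% with summits within 200 bp. Its lead over narrower peaks was 31.0 and 29.0 points, 8.37 and 9.52 points, 26.9 and 1.84 points, and 27.8 and 24.3 points under these 4 settings, and 17.4 and 16.1 points at matched fold. The share with both summits on the same side was 87.5% in replicate 1 with gaps of 10000 bp and 89.3% in replicate 2 at a −log10 q of 10. Alternatives chosen after seeing the data left out chromosome 13 between 21 and 24 Mb, backgrounds of 2 times or more, narrower peaks in domains, or peaks not alone in their list's region. Of these, a background under 2 times left 66 wide peaks in replicate 1. Keeping peaks alone in their list's region left 40 and 37, with a median fold of 10.4 in replicate 2, summit distances of 22.6% and 20.3%, and 85.7% on the same side in replicate 1. Without replicate 2, the rule applied to replicate 1 alone gave 112 wide peaks, and without replicate 1 it gave 135 in replicate 2.

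No paired analysis was possible because numbers are shared only between ChIP samples and inputs, and values of the inputs were not analysed here. With 2 lists, no spread between replicates can be estimated for any share. Read depth is unknown, and a peak missing from a list was only not called there.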
